A study of Mus musculus with 9 samples.

Results

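The ubiquitin-conjugating enzymes of the Ube2 family were followed in peripheral blood of mouse embryos that differed in their dose of a mutant Cbfb allele. Members were the genes whose symbol in the array's platform annotation begins with Ube2 followed by a letter, read only by probe sets that name a single gene. For each gene the probe set brightest on average over all arrays was taken, and 33 of the 18193 genes that a probe set names alone met the rule. These 33 genes had 81 probe sets, and 24 of the genes had more than 1. Ube2l3, whose 4 probe sets also name other genes, was not analysed here. The list holds 2 entries that are not conjugating enzymes by their annotation: Ube2cbp, listed in RefSeq with the synonym Ube3d, and Ube2d-ps, which RefSeq classes as a long noncoding RNA.

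Blood was taken at E12.5 from CbfbΔC95/ΔC95 embryos (homozygous), Cbfb+/ΔC95 embryos (heterozygous) and Cbfb+/+ embryos (wild-type) of crosses between heterozygotes, all on a mixed C57BL6/129SvEv background. Each RNA sample pooled the blood of 8 to 10 embryos of 1 genotype, and 3 arrays were hybridized for each genotype, so that 9 arrays were compared and their number limits the precision. Cbfb encodes the core binding factor subunit that partners the DNA-binding RUNX proteins, and ΔC95 is a mutant allele of it that the labels name without further detail. Whether the arrays of a genotype come from separate pools is not stated, so that p-values here rest on array-to-array spread that may be technical.

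Ubiquitin is attached to proteins by a relay of enzymes: an activating enzyme (E1) charges a conjugating enzyme (E2) with ubiquitin through a cysteine, and a ligase (E3) brings the charged E2 to the substrate. The E2 largely sets whether a chain is started or extended and which lysine of ubiquitin links the chain, and some E2 enzymes carry relatives of ubiquitin such as NEDD8 or ISG15 instead. In maturing red cells the system is known for removing ribosomes and other proteins that the finished cell no longer holds, a process in which Ube2o has been described in mice, and Ube2h is abundant in erythroid cells.

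Values are log2 signals as deposited, and differences are on the log2 scale, with the standard error (SE) of the linear model. A gene was called where limma gave an adjusted p under 0.05 over all 45037 tested probe sets, and only called genes are said to rise or fall. Levels of different probe sets were not compared with each other.

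Markers of other blood cells differed between the genotypes, and in these bulk samples fewer cells of a type cannot be told apart from less RNA per cell. The mean log2 signal of 10 macrophage markers was 4.67 to 4.76 on homozygous arrays, 6.98 to 7.01 on heterozygous and 7.25 to 7.29 on wild-type arrays, and against wild type all 10 were lower in homozygous blood and 4 of 10 in heterozygous blood. The mean of 7 megakaryocyte markers was 5.44 to 5.53, 7.35 to 7.47 and 7.14 to 7.2 in homozygous, heterozygous and wild-type blood. Embryonic globins marked the samples as blood, at 14.32 to 14.34 on homozygous, 14.28 to 14.3 on heterozygous and 14.28 to 14.29 on wild-type arrays, near the top of the range. Of 5 red cell markers, Alas2 and Epb42 fell in homozygous blood, by -0.16 and -0.62, and Epor and Epb42 in heterozygous blood, by -0.27 and -0.33. The mean of the 5 was 10.99 to 11.09 on homozygous, 11.07 to 11.09 on heterozygous and 11.22 to 11.24 on wild-type arrays. All 4 markers of hepatocytes and visceral endoderm rose and 5 of 6 mesenchyme markers fell in homozygous blood, and 1 of 4 neuron markers, Tubb3, rose by 0.52. In heterozygous blood the mesenchyme markers Col3a1 and Col1a2 rose by 0.93 and 0.53, the neuron markers Tubb3 and Nefl by 0.80 and 0.41, and Afp, a marker of hepatocytes and visceral endoderm, fell by -0.51. Poly-A spike-ins, added to the RNA before labelling, were 1.58 brighter on homozygous than on wild-type arrays and 0.88 brighter on heterozygous than on wild-type arrays. Equal poly-A spike-in signals would lower every difference from wild type below by those amounts, and homozygous minus heterozygous differences by 0.7. That turns the sign of each rise of a Ube2 gene. Hybridization spike-ins, a separate set of controls, were 0.28 brighter on homozygous than on wild-type arrays and 0.28 brighter than on heterozygous arrays. The part of these markers' cells and of the spike-in shifts in the Ube2 results was not tested. Cbfb itself was at 4.93, 5.13 and 5.25 on homozygous arrays, at 5.73, 5.8 and 5.79 on heterozygous arrays and at 6, 6.04 and 5.98 on wild-type arrays, read by a probe set whose position against the mutated stretch was not examined.

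Most Ube2 genes that changed were lower in the mutant blood. In homozygous against wild-type blood, 14 of 33 members were called, 13 lower and 1 higher, where 25.6% of all genes were called by the same rule (14.9% lower and 10.7% higher). The count called higher was 4, beside 12 lower, without homozygous replicate 2, and 4, beside 14 lower, with an intensity trend in the variance prior. The largest falls were in Ube2h, Ube2r2, Ube2q2, Ube2o, Ube2v2 and Ube2b, by -1.10 to -0.68, and the rise was in Ube2n, by 0.40. The median difference over the 33 members was -0.09, and over all genes 0.05. In heterozygous against wild-type blood, 8 members were called, 7 lower and 1 higher, where 11.8% of all genes were called (7.04% lower and 4.79% higher). Heterozygous and homozygous differences from wild type share the same wild-type arrays. Array values of homozygous and wild-type blood were separate for 22 of 33 members (66.7%), 16 lower and 6 higher. Of all 18193 genes 39.3% were, 3336 lower and 3808 higher. Those of heterozygous and wild-type blood were separate for 24 of 33 members (72.7%), 17 lower and 7 higher. Of all genes 29.9% were, 2848 lower and 2592 higher.

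**Figure D1:**
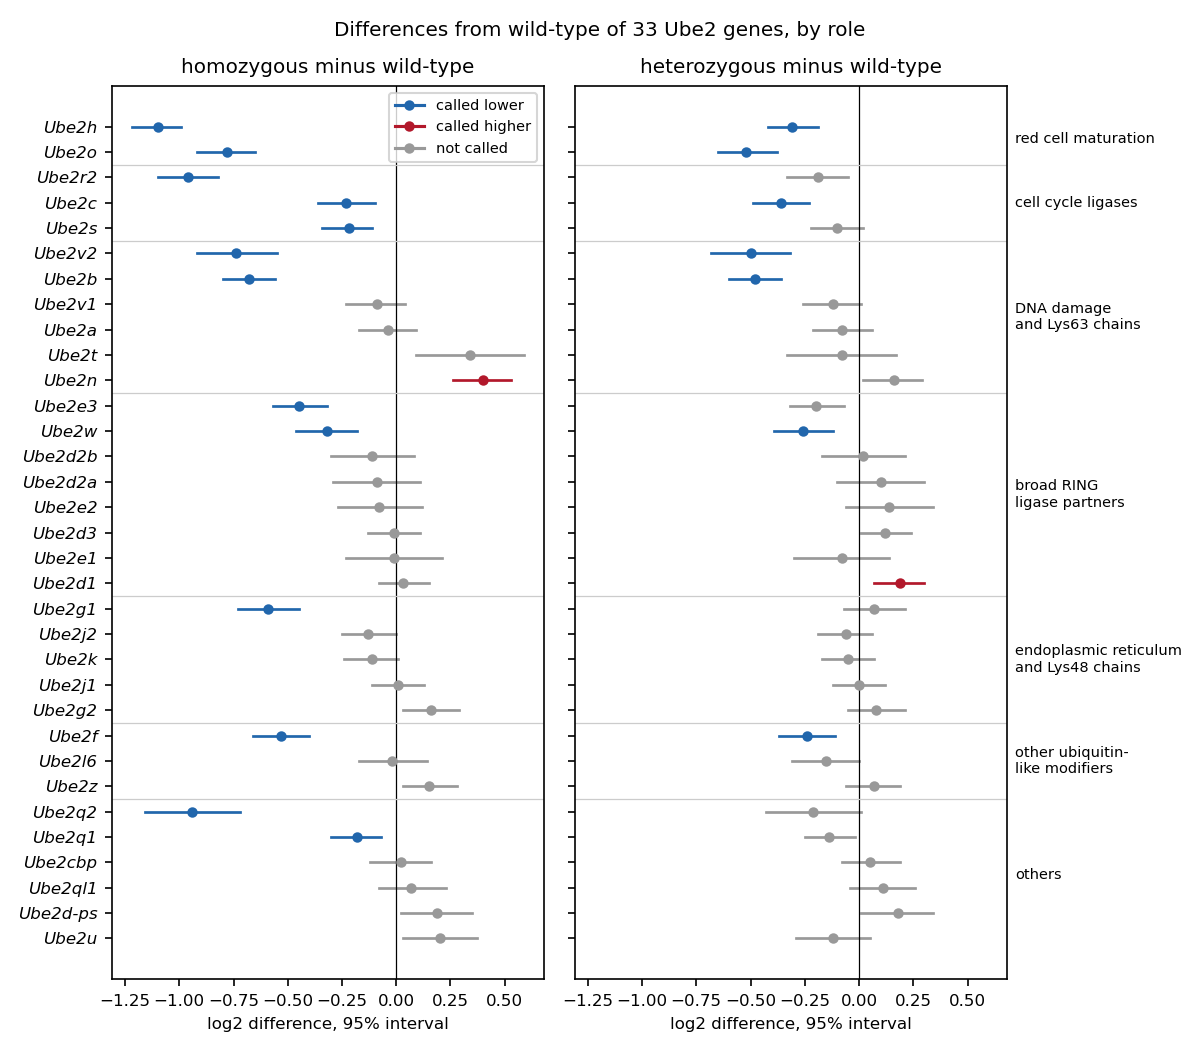
Log2 difference from wild-type blood (x axis) of the 33 Ube2 genes (rows, grouped by role), homozygous minus wild-type on the left and heterozygous minus wild-type on the right. Points are estimates over 3 arrays a genotype, bars are 95% intervals, and blue and red mark genes called lower and higher: 13 and 1 on the left, 7 and 1 on the right.

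The 2 members tied to red cell maturation, Ube2h and Ube2o, both fell in both mutant genotypes, where 14.9% of all genes fell in homozygous and 7.04% in heterozygous blood. Ube2h encodes the E2 that works with the CTLH ligase, the counterpart of the yeast GID complex. Its signal was 9.55, 9.49 and 9.55 on homozygous arrays, 10.31, 10.32 and 10.35 on heterozygous arrays and 10.59, 10.65 and 10.66 on wild-type arrays. The 3 genotypes did not overlap, with the heterozygous arrays nearer to the wild-type ones. The homozygous minus wild-type difference was -1.10 ± 0.05 (SE; 2.15-fold, limma adjusted p = 5.1e-08), the heterozygous minus wild-type difference -0.31 ± 0.05 (adjusted p = 0.0037), and the heterozygous mean lay 0.25 ± 0.05 above the midpoint of the other genotypes (SE, adjusted p = 0.0123), a call lost without any 1 of the 3 heterozygous replicates. All 4 probe sets of Ube2h fell in homozygous blood, by -1.27 to -1.08, and in heterozygous blood, by -0.57 to -0.31. The heterozygous deviation from the midpoint was called for the brightest of them alone, while the others gave 0.03 to 0.17.

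Ube2o encodes a very large enzyme that acts as E2 and E3 at once. It was at 9.02, 8.88 and 8.86 on homozygous arrays, 9.16, 9.23 and 9.17 on heterozygous arrays and 9.72, 9.72 and 9.67 on wild-type arrays. The order of the genotypes was that of Ube2h, but the heterozygous arrays stood closer to the homozygous ones. Ube2o fell by -0.78 ± 0.06 in homozygous blood (SE, limma adjusted p = 1.9e-06) and by -0.52 ± 0.06 in heterozygous blood (adjusted p = 0.000291), and homozygous was below heterozygous blood by -0.27 (adjusted p = 0.0137; 0.0612 without heterozygous replicate 2). Its distance from the genotype midpoint, -0.12, was not called (adjusted p = 0.273).

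**Figure D2:**
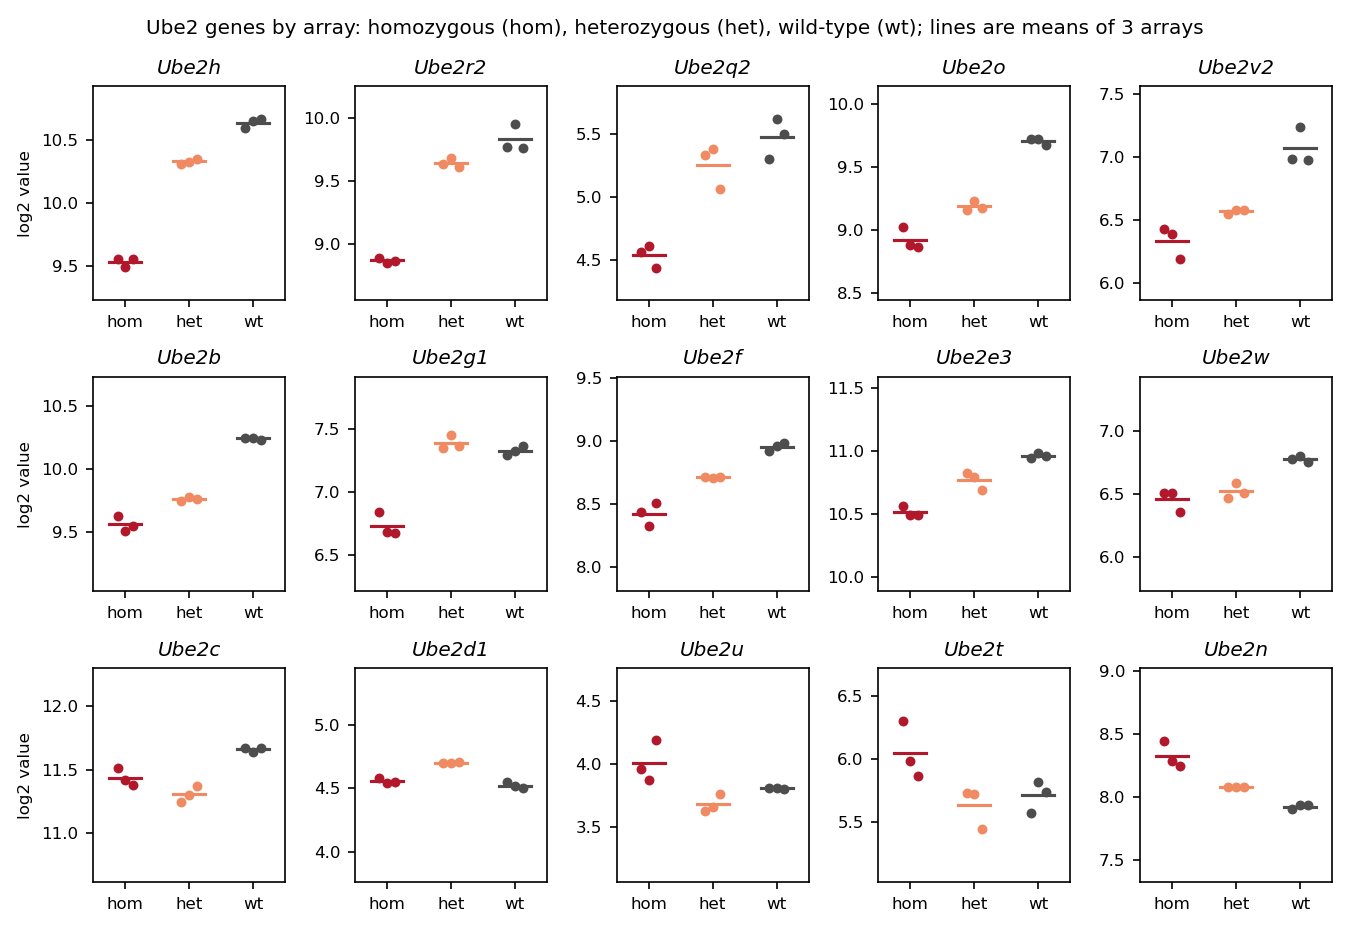
Log2 signal (y axis, the same span in every panel) of 15 Ube2 genes on each of the 9 arrays, with homozygous, heterozygous and wild-type arrays from left to right and the mean of 3 arrays as a line. Panels run from the largest fall, Ube2h at -1.10, to the rise of Ube2n at 0.40.

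RefSeq gives 2 start sites of Ube2h, and the windows from 250 bases before to 50 after each are shown because this gene changed most. Capitals mark letters of any motif searched on both strands. The core of RUNX sites was searched as TGTGGT and as TGCGGT. The site of GATA factors was searched as AGATAA, the cell cycle homology region as TTTGAA and an E2F site as TTCCCGC. No motif contains another. The upstream window, chr6:30304490-30304789 on the minus strand of GRCm38.p6, held none of them, and the downstream one, chr6:30243754-30244053 on the minus strand, held AGATAA and TTCCCGC.
Ube2h upstream start: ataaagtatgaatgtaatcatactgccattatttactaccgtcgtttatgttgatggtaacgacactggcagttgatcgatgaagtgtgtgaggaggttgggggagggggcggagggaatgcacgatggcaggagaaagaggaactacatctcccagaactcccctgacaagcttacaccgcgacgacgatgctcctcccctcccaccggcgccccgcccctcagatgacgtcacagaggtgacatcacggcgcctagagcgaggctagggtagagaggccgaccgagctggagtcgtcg
Ube2h downstream start: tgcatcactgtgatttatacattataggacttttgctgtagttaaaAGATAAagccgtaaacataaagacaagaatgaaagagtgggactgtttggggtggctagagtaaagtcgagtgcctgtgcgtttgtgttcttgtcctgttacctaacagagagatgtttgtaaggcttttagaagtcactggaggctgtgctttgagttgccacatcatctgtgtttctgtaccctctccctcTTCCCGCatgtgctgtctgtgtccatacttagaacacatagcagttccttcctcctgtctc

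Of 11 measured genes of the CTLH ligase, the partner of Ube2h, 6 fell and 2 rose in homozygous blood, where 14.9% of all genes fell and 10.7% rose, and the median difference was -0.42, against 0.05 over all genes. Rmnd5a, one of its RING subunits, averaged 5.94, 6.94 and 7.46 in homozygous, heterozygous and wild-type blood and fell by -1.52 in homozygous blood (limma adjusted p = 1.33e-08). Wdr26 fell by -0.89, Ranbp10 by -0.87 and Ypel5 by -0.66. The 2 that rose, named after their values were seen, were Rmnd5b at 0.46 and Gid4, a substrate receptor, at 0.21. Maea, another RING subunit, was at -0.06 and was not called (adjusted p = 0.553). In heterozygous blood 4 of the 11 fell (Rmnd5a, Wdr26, Ranbp10 and Ypel5, by -0.52 to -0.33) and Rmnd5b rose by 0.33, where 7.04% of all genes fell and 4.79% rose.

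**Figure D3:**
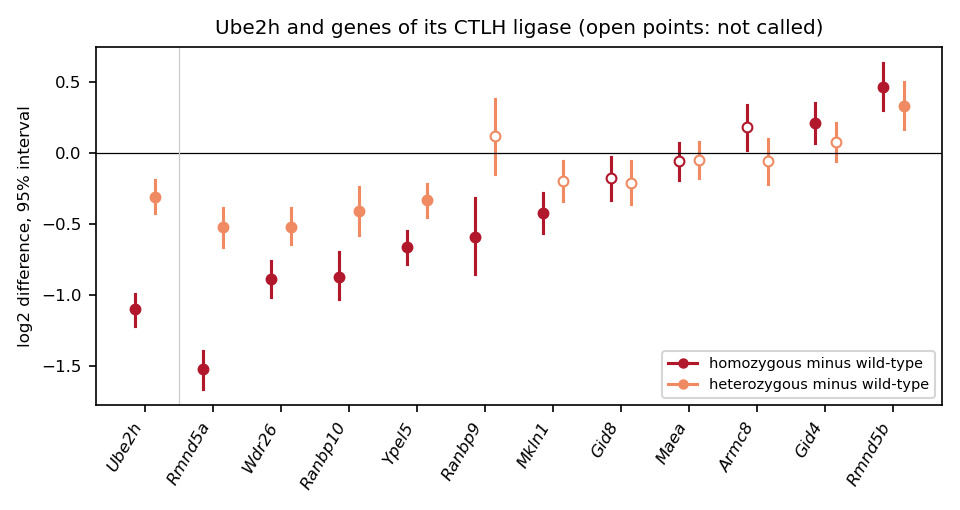
Log2 difference from wild-type blood (y axis, bars are 95% intervals) of Ube2h and of 11 genes of the CTLH ligase, homozygous in dark red left of heterozygous in orange. Filled points passed the test. Rmnd5a has the lowest homozygous value, -1.52, and Rmnd5b the highest, 0.46.

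The 3 members that serve cell cycle ligases were called lower in homozygous blood, where 14.9% of all genes were, and the calls of Ube2c and Ube2s were lost under other settings given with them. Ube2r2, a close relative of Cdc34 that works with cullin-RING ligases, was at 8.89, 8.85 and 8.86 on homozygous arrays, 9.63, 9.68 and 9.61 on heterozygous arrays and 9.77, 9.95 and 9.76 on wild-type arrays. Homozygous arrays stood well apart from both other genotypes, which lay close together. The difference was -0.96 ± 0.06 in homozygous minus wild-type blood (SE, limma adjusted p = 4.83e-07) and -0.77 ± 0.06 in homozygous minus heterozygous blood (adjusted p = 8.12e-06). Heterozygous minus wild-type blood gave -0.19 (95% interval -0.33 to -0.05) and was not called (adjusted p = 0.104), and the heterozygous mean lay 0.29 above the midpoint (adjusted p = 0.0114), a call lost without heterozygous replicate 1 or 2. A second, dimmer probe set of Ube2r2 fell by -0.36 (adjusted p = 0.0443), and the 2 falls differed by 0.60 (adjusted p = 0.00662, a test described with the probe sets). For the dimmer one, homozygous minus heterozygous blood gave -0.18 and the midpoint deviation was 0, neither of them called. Cdc34 was at -0.12 in homozygous minus wild-type blood (adjusted p = 0.172).

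Ube2c starts ubiquitin chains on substrates of the anaphase-promoting complex and Ube2s extends them. Ube2c was at 11.51, 11.42 and 11.38 on homozygous arrays, 11.24, 11.3 and 11.37 on heterozygous arrays and 11.67, 11.64 and 11.67 on wild-type arrays. The heterozygous arrays were the lowest here, but homozygous minus heterozygous blood, at 0.13, was not called (limma adjusted p = 0.201). Ube2c fell by -0.36 ± 0.06 in heterozygous blood (SE, limma adjusted p = 0.00262) and by -0.23 ± 0.06 in homozygous blood (adjusted p = 0.0177), and the heterozygous mean deviated by -0.24 from the midpoint (adjusted p = 0.022). The homozygous call was lost without homozygous replicate 3 or wild-type replicate 1 or 3, and the deviation without heterozygous replicate 1 or 2 or wild-type replicate 1 or 3. Ube2s averaged 12.49 ± 0.03, 12.61 ± 0.04 and 12.71 ± 0.01 (SD, n = 3 each) in homozygous, heterozygous and wild-type blood and fell by -0.22 in homozygous blood (limma adjusted p = 0.0104). That probe set carries the suffix _s_at, used by the array's maker for probes shared between transcripts, and the other probe set of Ube2s gave -0.13, which was not called (adjusted p = 0.197 when probe sets with the suffixes _x_at and _s_at are left out). Mitosis markers were lower as well, 5 of 8 in homozygous blood, with 1 higher, and 6 of 8 in heterozygous blood, with a mean signal of 8.46 to 8.53, 8.49 to 8.53 and 8.79 to 8.84 on homozygous, heterozygous and wild-type arrays. Their part in the Ube2c and Ube2s results was not tested.

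Of 17 measured subunits and regulators of the anaphase-promoting complex, 6 fell and 5 rose in homozygous blood, where 14.9% of all genes fell and 10.7% rose. Anapc10, a subunit that helps bind substrates, fell by -0.67, the inhibitor Fbxo5 by -0.53 and the subunit Cdc27 by -0.44, while the large subunit Anapc1 rose by 0.45. In heterozygous blood 2 of the 17 were called, Anapc5 at 0.29 and Anapc16 at -0.29, both named after their values were seen, and 11.8% of all genes were called there.

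Among the 6 members of DNA damage responses and Lys63 chains, 2 fell and 1 rose in homozygous blood, where 14.9% of all genes fell and 10.7% rose. Ube2b and Ube2a are the mouse counterparts of yeast Rad6. Ube2b was at 9.63, 9.51 and 9.55 on homozygous arrays, 9.75, 9.78 and 9.76 on heterozygous arrays and 10.25, 10.25 and 10.23 on wild-type arrays. Both mutant genotypes were clear of wild-type, and the heterozygous arrays lay nearer to the homozygous ones. Ube2b fell by -0.68 ± 0.05 in homozygous blood (SE, limma adjusted p = 2.31e-06) and by -0.48 ± 0.05 in heterozygous blood (adjusted p = 0.000232), and its other probe sets above the dimmest gave -0.80 and -0.69 in homozygous blood, with -0.13 for the dimmest, which was not called. Ube2a, by its brightest probe set, was at -0.04 in homozygous minus wild-type blood (95% interval -0.17 to 0.09).

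Ube2n builds Lys63-linked chains together with Ube2v1 or Ube2v2, partners that resemble an E2 but lack the active cysteine. Ube2n was at 8.44, 8.28 and 8.24 on homozygous arrays, 8.08, 8.08 and 8.08 on heterozygous arrays and 7.9, 7.93 and 7.93 on wild-type arrays. The genotypes did not overlap and homozygous arrays were highest. Ube2n rose by 0.40 ± 0.06 in homozygous blood (SE, limma adjusted p = 0.000525), while its dim second probe set gave -0.12 and was not called, and heterozygous minus wild-type blood gave 0.16 (adjusted p = 0.18). Ube2v2 was at 6.43, 6.39 and 6.19 on homozygous arrays, 6.55, 6.58 and 6.58 on heterozygous arrays and 6.99, 7.24 and 6.98 on wild-type arrays. By this probe set, its brightest, Ube2v2 moved against Ube2n. It fell by -0.74 ± 0.08 in homozygous blood (SE, limma adjusted p = 3.73e-05). Its fall in heterozygous blood was -0.50 ± 0.08 (SE, adjusted p = 0.00251). The dimmest probe set of Ube2v2 also fell, by -0.61 in homozygous and -0.56 in heterozygous blood. The next brightest fell by -0.72 in homozygous blood, but its heterozygous change of -0.20 was not called (limma adjusted p = 0.408). The remaining probe set went up by 0.15 and 0.17 in these genotypes, without a call. Ube2v1 was at -0.09 (95% interval -0.23 to 0.04) in homozygous minus wild-type blood.

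Ube2t, the E2 of the Fanconi anaemia pathway, was at 6.3, 5.98 and 5.86 on homozygous arrays, 5.73, 5.72 and 5.44 on heterozygous arrays and 5.57, 5.82 and 5.74 on wild-type arrays. Its homozygous arrays were the highest and the most spread. The difference from wild type, 0.34, was not called (limma adjusted p = 0.0599), whereas homozygous minus heterozygous blood gave 0.42 ± 0.12 (SE, adjusted p = 0.0346). A dimmer probe set of Ube2t gave 0.11 in homozygous minus heterozygous blood and was not called (limma adjusted p = 0.383). Of 10 Fanconi genes, 2 rose in homozygous blood, Fance by 0.27 and Fancd2, a substrate of Ube2t, by 0.24, where 10.7% of all genes rose.

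Of the 8 broad partners of RING ligases, Ube2e3 and Ube2w fell in homozygous blood, 2 of 8 called where 25.6% of all genes were. Ube2e3 was at 10.56, 10.49 and 10.49 on homozygous arrays, 10.82, 10.79 and 10.69 on heterozygous arrays and 10.94, 10.98 and 10.96 on wild-type arrays. The genotypes followed allele dose without overlap, and the difference was -0.45 ± 0.06 in homozygous minus wild-type blood (SE, limma adjusted p = 0.000104) and -0.20 in heterozygous minus wild-type blood, which was not called (adjusted p = 0.0581). Ube2w, which can tag protein N termini, was at 6.51, 6.51 and 6.36 on homozygous arrays, 6.47, 6.59 and 6.51 on heterozygous arrays and 6.78, 6.8 and 6.76 on wild-type arrays. The mutant genotypes overlapped each other and lay below wild-type, with falls of -0.32 in homozygous and -0.26 in heterozygous blood (limma adjusted p = 0.00264 and 0.0247). The heterozygous call of Ube2w was lost without heterozygous replicate 1 or 3 or any 1 wild-type replicate, and with its probe sets averaged, which gave -0.13 in homozygous and -0.10 in heterozygous minus wild-type blood (adjusted p = 0.0436 and 0.187). Of its 3 other probe sets, 1 fell in homozygous blood, by -0.44, and 2 gave 0.19 and 0.04 and were not called. Ube2d1 was at 4.58, 4.54 and 4.55 on homozygous arrays, 4.7, 4.7 and 4.71 on heterozygous arrays and 4.55, 4.52 and 4.5 on wild-type arrays. Here the heterozygous arrays were the highest, and Ube2d1 rose by 0.19 ± 0.05 in heterozygous blood (SE, limma adjusted p = 0.0472), with 0.03 in homozygous minus wild-type blood. That rise was lost without any 1 array other than homozygous replicate 1. The remaining 5, Ube2d2a, Ube2d2b, Ube2d3, Ube2e1 and Ube2e2, were at -0.11 to -0.01 in homozygous minus wild-type blood. Ube2d2b was read at 1.96 to 2.36 over all arrays, near the bottom of a range that starts at 1.49.

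Of 5 E2 enzymes that serve the endoplasmic reticulum or build Lys48-linked chains, Ube2g1 was called in homozygous against wild-type blood, 1 of 5 where 25.6% of all genes were called. It was at 6.84, 6.68 and 6.67 on homozygous arrays, 7.35, 7.45 and 7.36 on heterozygous arrays and 7.29, 7.32 and 7.36 on wild-type arrays. Heterozygous and wild-type arrays overlapped, and every homozygous array was below both. The difference was -0.59 ± 0.06 in homozygous minus wild-type blood (SE, limma adjusted p = 2.61e-05), 0.07 in heterozygous minus wild-type blood (95% interval -0.07 to 0.21, adjusted p = 0.662) and -0.66 in homozygous minus heterozygous blood (adjusted p = 2.78e-05). The heterozygous mean was 0.36 ± 0.06 above the midpoint (SE, adjusted p = 0.00304). The dimmer probe set of Ube2g1 also fell in homozygous blood, by -0.34, but its midpoint deviation of 0.15 was not called (limma adjusted p = 0.399). Ube2g2, Ube2j1, Ube2j2 and Ube2k, which serve degradation of misfolded proteins or extend Lys48 chains, were at -0.13 to 0.16 and were not called in homozygous minus wild-type blood.

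The members that carry relatives of ubiquitin were Ube2f, Ube2l6 and Ube2z. Ube2f, an E2 of NEDD8, was at 8.44, 8.33 and 8.51 on homozygous arrays, 8.72, 8.71 and 8.72 on heterozygous arrays and 8.92, 8.96 and 8.99 on wild-type arrays. The genotypes followed allele dose without overlap. Ube2f fell by -0.53 ± 0.06 in homozygous blood (SE, limma adjusted p = 3.72e-05) and by -0.24 ± 0.06 in heterozygous blood (adjusted p = 0.0272), and its heterozygous mean lay 0.03 from the midpoint. The heterozygous call was lost without any 1 heterozygous or wild-type replicate. The probe set carries the suffix _x_at, used for probes that may bind other transcripts, and a second one without it fell by -0.64 and -0.31 in homozygous and heterozygous blood, while the 2 dimmest of its 6 probe sets gave 0.13 and 0.02 in homozygous blood and were not called. Both subunits of the E1 of NEDD8 fell too, Uba3 by -0.61 and Nae1 by -0.56 in homozygous blood and by -0.60 and -0.44 in heterozygous blood. Nedd8 itself was at 0.17 in homozygous minus wild-type blood, not called, and fell by -0.28 in heterozygous blood (limma adjusted p = 0.0435).

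Ube2l6, the E2 of the interferon-induced ISG15, was at -0.02 in homozygous minus wild-type blood (95% interval -0.17 to 0.14), and Ube2z, which is charged by the E1 Uba6, at 0.15 (95% interval 0.03 to 0.28, limma adjusted p = 0.0877). Of the ISG15 pathway, Uba7, Herc6 and Usp18 were at -0.02, 0.19 and -0.27 in homozygous minus wild-type blood and were not called. In heterozygous blood the ISG15 ligase Herc6 rose by 0.40 and the deconjugating enzyme Usp18 fell by -0.42, where 11.8% of all genes were called. Both were dim, with heterozygous and wild-type means of 4.32 and 3.91 for Herc6 and 3.03 and 3.45 for Usp18. Array medians were 4.27 to 4.3. The heterozygous and wild-type arrays of Usp18 were not separate. Of the 7 E1 genes measured, 3 fell and 1 rose in homozygous blood, where 25.6% of all genes were called, with Uba6 at -0.37 and the SUMO E1 subunit Sae1 at 0.22 beside Uba3 and Nae1. Of 8 E2 genes and variants with other names, Atg3, the E2 of the autophagy protein LC3, fell by -0.75 in homozygous and by -0.38 in heterozygous blood, and Ufc1, the E2 of UFM1, rose by 0.20 in homozygous blood. Of 3 measured ubiquitin and ubiquitin-like genes, Sumo3 rose by 0.24 in homozygous and by 0.27 in heterozygous blood.

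The 6 remaining entries included Ube2q2 and Ube2q1, a branch of the family whose substrates are less well known. Ube2q2 was at 4.56, 4.61 and 4.44 on homozygous arrays, 5.33, 5.38 and 5.06 on heterozygous arrays and 5.3, 5.62 and 5.5 on wild-type arrays. Heterozygous and wild-type arrays overlapped and homozygous arrays lay below both. Ube2q2 fell by -0.94 ± 0.10 in homozygous blood (SE, limma adjusted p = 2.46e-05) and was at -0.21 in heterozygous minus wild-type blood (adjusted p = 0.282). Ube2q1 fell by -0.18 in homozygous blood (adjusted p = 0.0285), a call that was lost without any 1 of homozygous replicates 2 and 3 and of the 3 wild-type replicates. It was lost in 9 of 20 settings, among them the fit of only the compared groups and the average of its probe sets. The dimmer probe set of Ube2q1 gave -0.09 and was not called (limma adjusted p = 0.457). Ube2u was at 3.96, 3.87 and 4.19 on homozygous arrays, 3.63, 3.66 and 3.76 on heterozygous arrays and 3.81, 3.81 and 3.8 on wild-type arrays, and rose by 0.32 in homozygous against heterozygous blood (adjusted p = 0.0178). All these Ube2u values lie below the array medians of 4.27 to 4.3. Ube2ql1, Ube2cbp and Ube2d-ps were at 0.02 to 0.19 in homozygous minus wild-type blood and were not called.

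Homozygous embryos differ from heterozygous ones by a further mutant copy of Cbfb and by the loss of the remaining wild-type copy. The design cannot tell these apart. In homozygous against heterozygous blood, 11 members were called, 8 lower and 3 higher, where 15.8% of all genes were called (10.4% lower and 5.38% higher). Ube2h, Ube2r2, Ube2q2 and Ube2g1 fell by -0.80 to -0.66, and Ube2b, Ube2e3, Ube2f and Ube2o by -0.29 to -0.20. Ube2n, Ube2u and Ube2t rose by 0.24, 0.32 and 0.42. Array values were separate for 17 of 33 members (51.5%), 12 lower and 5 higher, against 31.1% of all genes (2800 lower and 2860 higher). The count called was 5 and 6 without heterozygous replicate 2 and without heterozygous replicate 1, all of them lower. Besides these, the rise of Ube2n was lost without homozygous replicate 1 or heterozygous replicate 3, that of Ube2t without homozygous replicate 1 or 2, heterozygous replicate 3 or wild-type replicate 3, and the fall of Ube2b without homozygous replicate 2 or 3, heterozygous replicate 3 or wild-type replicate 2 or 3.

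The heterozygous mean was also tested against the midpoint of homozygous and wild-type blood. Of 33 members, 4 deviated, 3 above and 1 below it, where 5.18% of all genes did (3.64% above and 1.53% below). Ube2g1, Ube2r2 and Ube2h lay 0.36, 0.29 and 0.25 above the midpoint, towards wild-type, and Ube2c deviated by -0.24. The dimmer probe sets of Ube2g1 and Ube2r2 gave 0.15 and 0 and were not called, and Ube2h deviated by its brightest alone. Over all 81 probe sets of the members 4.94% deviated, against 3.72% of all probe sets. Without heterozygous replicate 1 or 2 only Ube2g1 was called. For the other members the deviation was -0.25 to 0.25 and was not called. In heterozygous against wild-type blood the 8 called members were Ube2o, Ube2v2, Ube2b, Ube2c, Ube2h, Ube2w and Ube2f, which fell by -0.52 to -0.24, and Ube2d1, and the count was 5 without any 1 of heterozygous replicates 1 and 3 and of the 3 wild-type replicates.

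Probe sets of 1 gene did not always move together. Over all 81 probe sets of the members, 36 were called in homozygous against wild-type blood, 35 lower and 1 higher, where 20% of all probe sets were called. The difference of each other probe set from the brightest one of its gene was tested by the same model over all 16752 such pairs, a test added after the values were seen. Of 48 pairs of the members, 16 in 11 genes changed their difference in homozygous against wild-type blood (8 lower and 8 higher, 33.3%), against 22.9% of all pairs, and 5 pairs in heterozygous against wild-type blood (10.4%), against 4.01% of all pairs. In homozygous against heterozygous blood 7 pairs were called (14.6%), the same share as the 14.6% of all pairs.

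Ube2d3, a partner of many ligases, is read by 7 probe sets. The 3 brightest were at -0.01, -0.02 and -0.03 in homozygous minus wild-type blood, and the other 4 fell, by -0.76 to -0.32. The probe set with the largest fall was at 6.52, 6.53 and 6.57 on homozygous arrays, 7.09, 7.11 and 6.83 on heterozygous arrays and 7.32, 7.36 and 7.21 on wild-type arrays, so that the genotypes did not overlap. Its fall exceeded the change of the brightest probe set by -0.75 ± 0.10 (SE, limma adjusted p = 0.000148). For Ube2d2a, the brightest probe set was at -0.09 and others at -0.01 and 0.14, none of them called. Its remaining probe sets fell by -0.33 and -0.72, and the one at -0.72 differed from the brightest by -0.63 (limma adjusted p = 0.000724). The dimmer probe set of Ube2a fell by -0.55 against -0.04 for the brighter one, and that of Ube2j1 by -0.43 against 0.01, with differences of -0.51 and -0.44 (adjusted p = 0.00144 and 0.00192). The dim probe set of Ube2n, the gene whose brightest one rose, also differed from it, by -0.51 (adjusted p = 0.012). In these 5 genes the homozygous call depends on the probe set. So it does in Ube2b, Ube2f, Ube2q1, Ube2s, Ube2v2 and Ube2w, where the brightest probe set fell and at least 1 other was not called. The 8 pairs that went the other way belonged to Ube2b, Ube2f, Ube2j2, Ube2r2, Ube2v2 and Ube2w.

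**Figure D4:**
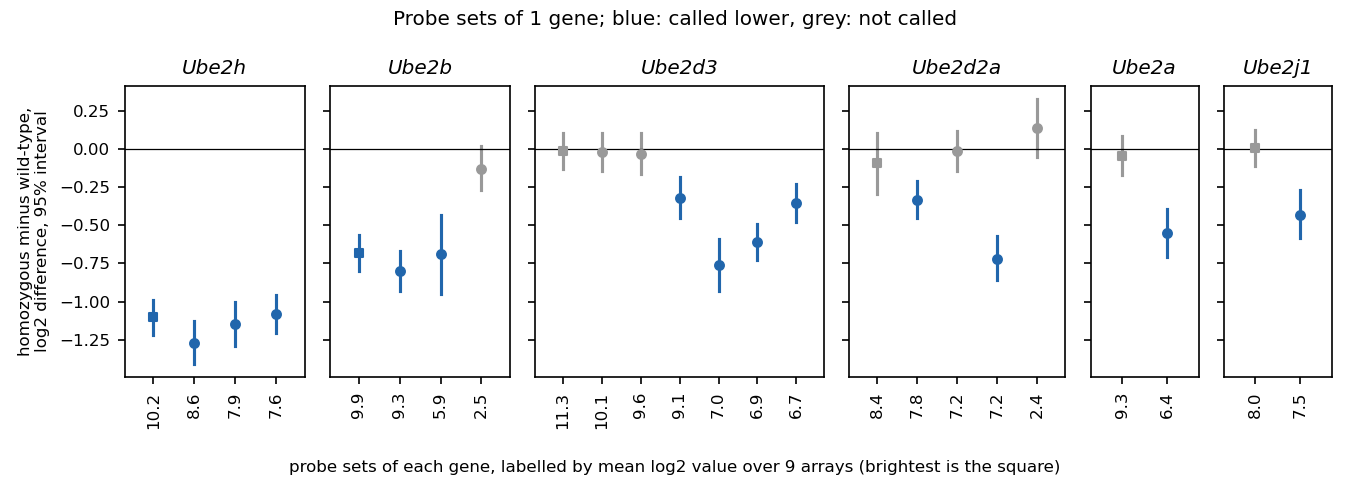
Homozygous minus wild-type log2 difference (y axis, bars are 95% intervals) of each probe set of 6 Ube2 genes, ordered along the x axis by mean log2 signal over the 9 arrays, with the brightest as a square. Ube2h fell by all 4 probe sets and Ube2b by 3 of 4, whereas Ube2d3, Ube2d2a, Ube2a and Ube2j1 fell only by probe sets other than the brightest.

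Promoter windows in RefSeq (GRCm38.p6) were found for 27 of the 33 members, 9 of them among the 13 that fell in homozygous blood. TGCGGT was in 4 of the 27 and in 7.34% of all genes with such windows. TGTGGT was in 1 of 27 and 18.9%, AGATAA in 1 of 27 and 12.7%, TTTGAA in 4 of 27 and 20.2%, and TTCCCGC in 7 of 27 and 5.29%. Among the 9 that fell, TGCGGT was in 3, TGTGGT in 0, AGATAA in 1, TTTGAA in 2 and TTCCCGC in 2. Among the 17 uncalled members with windows, the counts were 1, 1, 0, 2 and 5 in that order. Since CBFβ acts with RUNX proteins, the windows of changed members that hold a RUNX core are shown, with capitals as above. They lie at chr1:91250054-91250353 on the plus strand (Ube2f), chr9:55149119-55149418 on the plus strand (Ube2q2) and chr7:4812291-4812590 on the minus strand (Ube2s). A match describes letters only.
Ube2f: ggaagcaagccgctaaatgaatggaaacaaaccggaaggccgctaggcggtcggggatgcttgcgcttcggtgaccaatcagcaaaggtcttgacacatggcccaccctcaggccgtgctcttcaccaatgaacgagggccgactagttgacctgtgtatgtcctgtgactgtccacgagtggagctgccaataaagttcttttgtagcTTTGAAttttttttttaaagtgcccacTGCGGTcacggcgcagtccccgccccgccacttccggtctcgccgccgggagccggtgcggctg
Ube2q2: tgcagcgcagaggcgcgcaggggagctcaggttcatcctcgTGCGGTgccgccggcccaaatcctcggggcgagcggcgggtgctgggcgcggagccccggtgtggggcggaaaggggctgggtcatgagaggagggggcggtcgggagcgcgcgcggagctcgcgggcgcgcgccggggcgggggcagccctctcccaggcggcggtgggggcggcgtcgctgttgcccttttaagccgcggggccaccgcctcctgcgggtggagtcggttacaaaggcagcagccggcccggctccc
Ube2s: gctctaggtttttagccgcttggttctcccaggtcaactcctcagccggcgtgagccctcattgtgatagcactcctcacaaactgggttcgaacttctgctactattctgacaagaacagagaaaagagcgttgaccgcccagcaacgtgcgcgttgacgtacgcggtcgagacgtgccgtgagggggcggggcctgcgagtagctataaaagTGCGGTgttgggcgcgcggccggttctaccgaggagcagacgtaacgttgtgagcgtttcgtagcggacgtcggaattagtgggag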

How the data were processed

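The authors' deposited table holds log2 values of 45101 probe sets on 9 arrays. The log2 scale was inferred from the range of 1.49 to 14.56 and from RMA, which the submitters' processing notes name beside Affymetrix Expression Console 1.0 and Partek 6.5, without roles. Array medians were 4.27 to 4.3, so a uniform difference in RNA content is not visible. Scanner files were not used here. The 64 control probe sets were left out of the tests.

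Genes were named through the platform annotation and all 33 members matched RefSeq (GRCm38.p6) by Entrez identifier with the same symbol. A linear model of genotype (limma 3.58.1, R 4.3.3) used all 9 arrays and moderated variances, 2-sided, with Benjamini-Hochberg adjustment over 45037 probe sets in each of 4 contrasts. The main model did not pair arrays by replicate number, since the labels do not say that it marks a shared litter or batch. Deviations from the group means correlated at -0.02 to 0.07 between same-numbered arrays of different genotypes and at -0.06 to 0.03 between differently numbered ones. These correlations cannot settle whether same-numbered arrays shared a litter or batch. Arrays of 1 genotype correlated at 0.996 to 0.998, with no duplicates. Members, lists and tests were chosen with earlier results of these data known. Values per array are given for members called in any pairwise contrast and among the 12 largest differences of one of them; other lists name up to 4 called genes. The test was tried on simulated arrays. Alternatives were other samples in the fit, a replicate block, a filter on dim probe sets, other variance priors, array weights, normalizations, gene level tests, other probe sets, a threshold of 0.01 and leaving out each array. Figures used matplotlib 3.10.9.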

Additional observations from a re-analysis of the deposited data

How the results depend on the processing

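The count of members called in homozygous against wild-type blood was 11 to 18 over 11 other settings and 12 to 16 when each array was left out in turn, against 14. In heterozygous against wild-type blood it was 5 at a threshold of 0.01 and 5 to 9 when 1 array was left out, against 8. In homozygous against heterozygous blood it was 7 with only the compared groups in the fit, 5 at a threshold of 0.01 and 5 to 11 when 1 array was left out, against 11. For the deviation from the midpoint it was 1 at a threshold of 0.01 and 1 to 5 when 1 array was left out, against 4. With the replicate number as a block the 4 counts were 13, 7, 10 and 4, and no other call than those of Ube2q1, Ube2d1 and Ube2b (homozygous minus heterozygous) was lost under this pairing. With the probe sets of a gene averaged, Ube2j1 was called at -0.21 in homozygous minus wild-type blood and Ube2a at -0.2 in homozygous minus heterozygous blood, both with the sign turned, since probe sets of these genes disagree, and the rise of Ube2n was 0.14 and not called. Of the called members, 10 of 14 in homozygous and 5 of 8 in heterozygous against wild-type blood, 5 of 11 in homozygous against heterozygous blood and 1 of 4 for the midpoint were called under every setting run. The rise of Ube2d1 in heterozygous blood was lost in 14 of 20 settings, the causes of such losses were not tested, and signal over background is unknown.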
